A study of Homo sapiens with 2 samples.

Results

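The 9 genes described here belong to the BCL2 family of apoptosis regulators: BCL2L1, MCL1, BCL2L2, BCL2L12, BAX, BAK1, BID, BAD and BBC3. They were taken as the rows of the transcript annotation whose gene name, split at commas, was 1 of these names. They made 9 gene entries of 57110, with 51 of the 99493 listed transcripts. The series is a single-cell RNA sequencing benchmark of Isosceles, a package that estimates transcript levels from long reads. IGROV1, SK-OV-3 and COV504 cells, all established human ovarian cancer lines with no treatment listed, were detached with trypsin and pooled in equal parts, so every value below comes from that pool. The Illumina group and the PromethION group held 1 library each. Levels were read from the PromethION library, sequenced on a nanopore instrument that reads whole cDNA molecules, and for the Illumina library only its list of barcodes was used.

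The BCL2 family decides whether the outer membrane of the mitochondrion stays sealed. Anti-apoptotic members such as BCL-xL (the product of BCL2L1) and MCL1 bind and restrain BAX and BAK, which otherwise form pores that let cytochrome c out and start the caspase cascade. BH3-only members such as BID, BAD and PUMA (the product of BBC3) respond to stress and either occupy the anti-apoptotic proteins or engage BAX and BAK. Several of these genes give long and short forms with different activity, and BCL-xL and MCL1 are known as survival factors of ovarian cancer cells.

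The PromethION matrix held 13052893 estimated counts over 2462 barcodes, all of which were in the Illumina list. Of these, 2129 barcodes had at least 1000 counts. A barcode was given to a line where at least 75% of its counts over 3 marker sets came from 1 set: ERBB2, NNMT, TSPAN1 and DHRS2 for the ERBB2-set line, RARRES2 and TMEM100 for the RARRES2-set line, and FOLR1, CLDN3, DEFB1 and CXCL14 for the FOLR1-set line. This gave 648, 473 and 765 barcodes with a median of 4953, 6262 and 5289 counts, and left 243 barcodes of at least 1000 counts without a line. The assignment was a range on a score, since a marker share of 90% kept 528, 285 and 707 barcodes. Markers that the assignment did not use included GRB7, MIEN1, STARD3 and PGAP3, neighbours of ERBB2 that are amplified with it in SK-OV-3. All were highest in the ERBB2-set line, so this line was SK-OV-3-like. GRB7 was in 22.2% of its barcodes, but also in 15.2% of FOLR1-set barcodes. CDKN2A had 1 count in the ERBB2-set line and 0 in the RARRES2-set line, so it does not tell these lines apart. Among the IGROV1 markers PAX8 was highest in the FOLR1-set line but CDH1 and ESRP1 in the RARRES2-set line, so the other 2 lines keep the names of their sets. As a measure of free RNA, CDKN2A had 88 counts in the FOLR1-set line, 1 in the ERBB2-set line and 0 in the RARRES2-set line, where the upper limit was 1.09 CPM (counts of the gene per 1000000 counts of the line). Other genes fixed for this check, in the ERBB2-set, RARRES2-set and FOLR1-set lines, were CDH1 (29, 152 and 11 counts), ESRP1 (0, 30 and 4) and GRB7 (194, 9 and 130). Whether counts outside the highest line were free RNA or expression of that line was not tested.

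With 1 library there is no replicate and no test. A level is the summed count of a line in CPM with its exact Poisson interval, a ratio of levels has a conditional binomial interval, and a share has an exact Clopper-Pearson interval. All are 95% intervals and cover counting error only. An entry counted as differing where its CPM differed by at least 1.5-fold between 2 lines, among the 8486 entries with at least 100 counts over the 3 lines. In all 8 member entries reached that minimum, and BBC3, with 74 counts, did not. BCL2L2 reached it only in an entry joined with PABPN1 that is mostly PABPN1, and this entry passed 1.5-fold in none of the 3 pairs, so it adds to the 8 below but to no count of those past the limit.

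**Figure D1:**
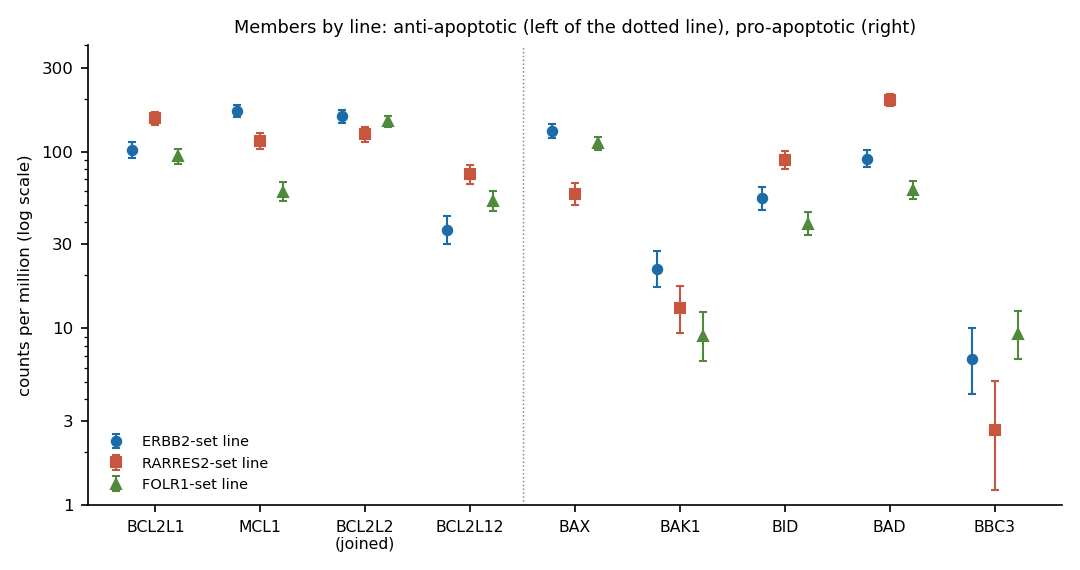
Level of the 9 members in each line, in CPM on a log scale; symbols are lines, bars are 95% Poisson intervals, and the dotted line separates anti-apoptotic from pro-apoptotic members. MCL1 runs from 170 CPM in the ERBB2-set line to 59.6 in the FOLR1-set line, while BAD peaks in the RARRES2-set line at 196 CPM.

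The lines differed in which members were high. The RARRES2-set line had the highest BAD, BCL2L1, BID and BCL2L12 and the lowest BAX, the ERBB2-set line had the highest MCL1 and BAK1, and the FOLR1-set line had the lowest MCL1. Between the ERBB2-set and RARRES2-set lines, 2 of 8 members were at least 1.5-fold higher in the ERBB2-set line (BAX and BAK1), against 34.1% of all entries, and 4 were higher in the RARRES2-set line (BCL2L1, BCL2L12, BID and BAD), against 20.8%. Between the ERBB2-set and FOLR1-set lines, 3 members were higher in the ERBB2-set line (MCL1, BAK1 and BAD), against 43.1% of entries, and 0 in the FOLR1-set line, against 14.7%. Between the RARRES2-set and FOLR1-set lines, 4 members were higher in the RARRES2-set line (BCL2L1, MCL1, BID and BAD), against 34.2% of entries, and 1 in the FOLR1-set line (BAX), against 20.3%. Differences of this size were therefore common among all entries.

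The median log2 ratio of all entries was not 0, at 0.21 for the ERBB2-set over the RARRES2-set line, 0.45 for the ERBB2-set over the FOLR1-set line and 0.20 for the RARRES2-set over the FOLR1-set line. Medians over the 8 members were -0.12, 0.35 and 0.62. The FOLR1-set line had a median of 7.12% mitochondrial counts per barcode, against 2.82% and 3.02% in the ERBB2-set and RARRES2-set lines. Leaving mitochondrial and ribosomal protein genes out of the totals gave 2 members higher in the ERBB2-set line (MCL1 and BAK1) and 1 in the FOLR1-set line (BCL2L12), with 28.3% and 22.4% of all entries. The same change gave 3 members higher in the RARRES2-set line and 1 higher in the FOLR1-set line, with 24.4% and 29.3% of entries. Centring on the median of all entries gave 2 and 1 members with 24.8% and 25.7% of entries in the former pair, and 3 and 1 members with 27.3% and 26.7% in the latter. In the remaining pair it gave 1 member higher in the ERBB2-set line and 4 in the RARRES2-set line, with 27.0% and 26.4%. No member past 1.5-fold turned its direction under either scaling.

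**Figure D2:**
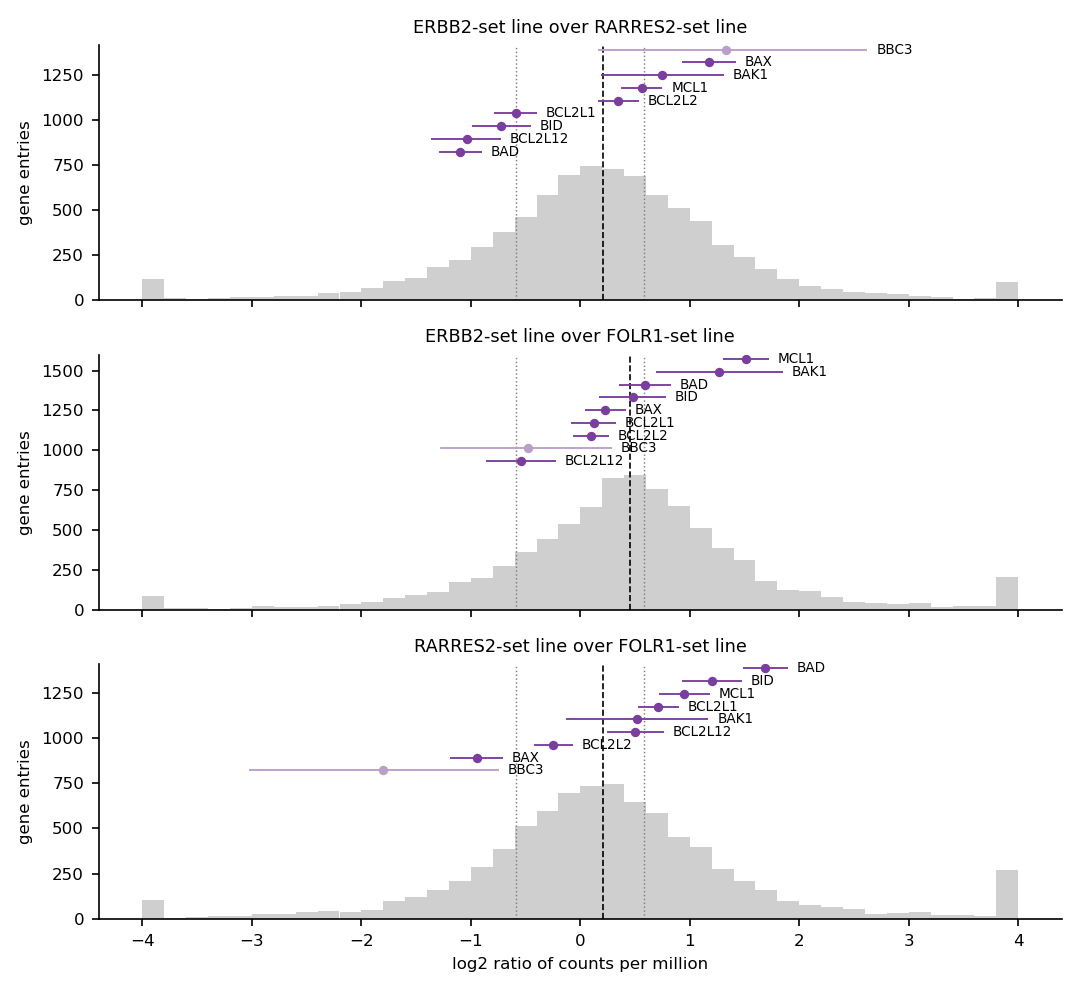
Distribution of log2 CPM ratios over all entries with at least 100 counts (grey bars, entries at 0 in a line left out, values past 4 gathered in the end bars), with each member as a point with its 95% interval (paler for BBC3, which is below that minimum); the dashed line is the median of all entries and the dotted lines are 1.5-fold. In each pair the members spread across the bulk of the entries, from -1.10 (BAD) to 1.18 (BAX) in the upper panel among members with at least 100 counts.

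BCL2L1, whose long form BCL-xL blocks apoptosis and whose short form BCL-xS promotes it, lies on chromosome 20 (GRCh38, 31664452 to 31722898, minus strand). Its level was 103 CPM (95% interval 92.4 to 114) in the ERBB2-set line, 155 (142 to 169) in the RARRES2-set line and 94.6 (85.8 to 104) in the FOLR1-set line. The RARRES2-set line was the high one, 1.51-fold (1.31 to 1.73) above the ERBB2-set line and 1.64-fold (1.44 to 1.86) above the FOLR1-set line, and the other 2 lines did not differ beyond counting error (1.09-fold, 0.942 to 1.25). Their order depended on the scaling, with a log2 ratio of 0.12 for the ERBB2-set over the FOLR1-set line that became -0.24 without mitochondrial and ribosomal protein genes. The ratio to the ERBB2-set line was close to the limit and came to 1.48-fold without barcodes that Scrublet called as doublets. The ratio to the FOLR1-set line came to 1.33-fold without mitochondrial and ribosomal protein genes and to 1.42-fold with median centring, so that BCL2L1 was the member lost from that pair. The RARRES2-set line was also the deepest, so barcodes were thinned to 2000 counts, which left out shallower ones and kept 606, 443 and 733 in the ERBB2-set, RARRES2-set and FOLR1-set lines. BCL2L1 was then detected in 16.3%, 26.4% (22.4 to 30.8) and 15.3% of them. Over all barcodes of the lines, without thinning, the shares were 37.7%, 52.9% and 39.3%. Thinning does not remove a CPM that itself changes with depth. In the RARRES2-set line BCL2L1 was at 172 CPM (156 to 190) in the deeper barcodes and 110 (89.6 to 133) in the shallower ones. As a mean over barcodes this line was 1.42-fold above the ERBB2-set line and 1.48-fold above the FOLR1-set line. The part of depth in these differences was not tested.

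The 2 forms of BCL2L1 differ in where exon 2 ends. The long transcripts ENST00000307677 and ENST00000376062 encode 233 codons, and the short transcript ENST00000376055 ends exon 2 earlier, loses 189 bases (chr20:31721655-31721843) and encodes 170 codons. The junctions into exon 3 are shown 5′ to 3′ on the transcript strand, with exon 3 in capitals, because they are the bases a read must cover to tell the forms apart.
BCL2L1 long: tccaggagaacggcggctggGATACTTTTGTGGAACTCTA
BCL2L1 short: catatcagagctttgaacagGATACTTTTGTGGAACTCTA
The stretch that the short form lacks, which covers the BH1 and BH2 regions of BCL-xL, is in capitals here between 10 bases of context on either side.
BCL2L1 exon 2 end: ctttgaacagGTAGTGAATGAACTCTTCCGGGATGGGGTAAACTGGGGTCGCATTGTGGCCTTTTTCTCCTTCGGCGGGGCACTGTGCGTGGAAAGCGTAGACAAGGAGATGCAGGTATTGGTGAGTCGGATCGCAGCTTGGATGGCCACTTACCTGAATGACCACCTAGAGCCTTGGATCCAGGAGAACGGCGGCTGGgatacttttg

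The deposited estimates put 32.6% of BCL2L1 counts in the short form in the ERBB2-set line (27.6 to 37.6), 31.3% (27.4 to 35.5) in the RARRES2-set line and 30.4% (26.1 to 35.1) in the FOLR1-set line. These shares are close to an even division over the 3 listed transcripts, which held 34.5%, 32.6% and 32.9% in the ERBB2-set line. Barcodes with exactly 1 count of a gene show how a count was handled, since a count that matched 1 transcript stayed whole and a count that matched several was divided. Of 582 such barcodes for BCL2L1, 548 had the count divided over all 3 transcripts, and 20 had it given whole to 1 (3.44%, 2.11 to 5.26). Over all entries with at least 2 transcripts the corresponding share was 56.2% of 2110946 single counts.

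Counts that did tell the forms of BCL2L1 apart were almost all long. Of 33 such single counts, 32 named a long transcript and 1 the short one (3.03% short, 0.0767 to 15.8). By line the counts were 7 long and 0 short in the ERBB2-set line, 6 and 1 in the RARRES2-set line, and 15 and 0 in the FOLR1-set line. In the other 549 single counts the form was not named. Whole-number estimates add nothing to them, since apart from 5, 4 and 8 single counts in the ERBB2-set, RARRES2-set and FOLR1-set lines they were equal parts over all 3 transcripts, in 6, 34 and 17 barcodes. The exon 2 to exon 3 junction of BCL2L1 lies 1635 bases from the listed 3′ end.

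**Figure D3:**
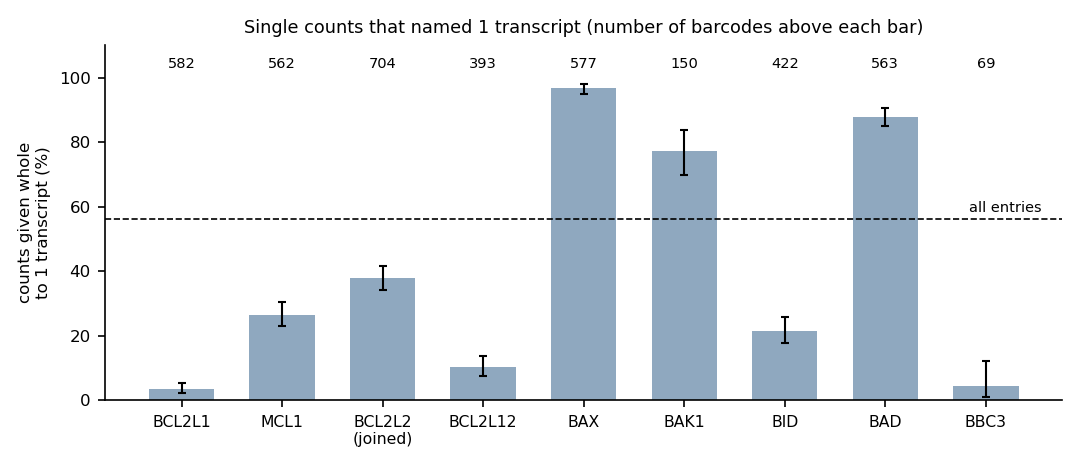
Share of single counts (barcodes with exactly 1 count of the gene) that the deposited estimates gave whole to 1 transcript, for each member, with 95% Clopper-Pearson intervals and the number of barcodes above each bar; the dashed line is the share over all entries with at least 2 transcripts, 56.2%. BAX, BAD and BAK1 lie above it at 96.7%, 87.9% and 77.3%, and BCL2L1 is lowest at 3.44%.

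MCL1, a short-lived anti-apoptotic protein that binds BAK, BIM and NOXA, lies on chromosome 1 (150574551 to 150579738, minus strand). It was at 170 CPM (156 to 184) in the ERBB2-set line, 115 (104 to 127) in the RARRES2-set line and 59.6 (52.7 to 67.1) in the FOLR1-set line. The 3 intervals were separate in that order. The ERBB2-set line was 2.85-fold (2.46 to 3.31) above the FOLR1-set line, the RARRES2-set line was 1.93-fold (1.65 to 2.27) above it, and the step from the RARRES2-set to the ERBB2-set line was 1.48-fold (1.30 to 1.68). MCL1 was detected in 25.9%, 21.4% and 12.7% of barcodes thinned to 2000 counts, and in 49.8%, 47.4% and 27.7% without thinning.

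MCL1 also gives a short, pro-apoptotic form by skipping exon 2 (chr1:150578244-150578491, 248 bases). The long transcript ENST00000369026 encodes 350 codons and the short transcript ENST00000307940 encodes 271. Their junctions from exon 1 are shown with the next exon in capitals, since these bases define the skip.
MCL1 exon 1 to exon 2: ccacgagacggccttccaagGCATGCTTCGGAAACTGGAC
MCL1 exon 1 to exon 3: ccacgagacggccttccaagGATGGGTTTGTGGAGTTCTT
The estimates put 0.342% of MCL1 counts in the short form in the ERBB2-set line (0.0414 to 1.23), 0.771% (0.159 to 2.24) in the RARRES2-set line and 0.372% (0.00941 to 2.05) in the FOLR1-set line. Among 562 single counts, 5 named the short form, with 2 in the ERBB2-set line and 3 in the RARRES2-set line. In the FOLR1-set line 0 of 166 did, with an upper limit of 2.20% from counting error alone. The listed short transcript ends at 150577070, which is 2514 bases before the end of the long one, so a read from the far 3′ part of the gene cannot match it whether or not it covers exon 2. The 562 may therefore include counts that could not have named the short form, so its shares and the 2.20% limit may be too low. No single count named ENST00000620947, a transcript that removes 459 bases inside exon 1, although the estimates gave it 23.5%, 25.9% and 31.6% of MCL1 counts in the 3 lines.

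BCL2L2, which encodes the anti-apoptotic BCL-w, was listed only in an entry joined with its neighbour PABPN1, a poly(A) binding protein gene, and their readthrough BCL2L2-PABPN1 on chromosome 14 (23306762 to 23326185, plus strand). The joined entry was at 159 CPM (146 to 173) in the ERBB2-set line, 126 (114 to 138) in the RARRES2-set line and 149 (138 to 161) in the FOLR1-set line, the narrowest range of the members at 1.27-fold. Most of it was PABPN1: the transcript of BCL2L2 alone, ENST00000250405, held 25.5, 24 and 20 counts, or 4.64%, 5.66% and 2.98% of the entry. In CPM this transcript was at 7.41, 7.10 and 4.43. The level of the joined entry therefore says little about BCL-w, and the entry was left out of the comparison of transcript shares.

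BCL2L12, an atypical family member reported to inhibit effector caspases, lies on chromosome 19 (49665142 to 49673916, plus strand). It was at 36.3 CPM (30.2 to 43.3) in the ERBB2-set line, 74.6 (65.7 to 84.4) in the RARRES2-set line and 52.7 (46.2 to 59.9) in the FOLR1-set line. The ERBB2-set line was the low one, 2.05-fold (1.65 to 2.57) below the RARRES2-set line and 1.45-fold (1.16 to 1.82) below the FOLR1-set line. The latter difference passed 1.5-fold when mitochondrial and ribosomal protein genes were left out (log2 ratio of -0.90), and over barcodes with at least 5 marker counts it came to -0.33 (-0.68 to 0.02). Inside each line its level was also higher in barcodes with a larger share of counts from G2M-phase genes, a share in which the lines differed (below). Its 10 listed transcripts were poorly told apart, with 10.2% of 393 single counts given whole to 1 (7.37 to 13.6).

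BAX, one of the 2 pore-forming effectors, lies on chromosome 19 (48954877 to 48961798, plus strand). It was at 131 CPM (119 to 144) in the ERBB2-set line, 58.0 (50.2 to 66.7) in the RARRES2-set line and 112 (102 to 122) in the FOLR1-set line. The RARRES2-set line was the low one, 2.26-fold (1.91 to 2.68) below the ERBB2-set line and 1.93-fold (1.63 to 2.29) below the FOLR1-set line. The order of the ERBB2-set and FOLR1-set lines depended on the scaling, with a log2 ratio of 0.23 that became -0.13 without mitochondrial and ribosomal protein genes.

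BAX forms were well resolved, and their shares were apart between the ERBB2-set and FOLR1-set lines in the estimates. The main transcript ENST00000345358 (192 codons, BAX alpha) removes the last intron, and ENST00000293288 (218 codons, BAX beta) keeps it (chr19:48960915-48961531, 617 bases) and reads 180 coding bases into it, which replaces the C-terminal end that anchors BAX in the membrane. The bases at the end of exon 5 are followed by those of exon 6 or of the intron in capitals, to show what is kept.
BAX intron removed: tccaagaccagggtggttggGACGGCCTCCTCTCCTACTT
BAX intron kept: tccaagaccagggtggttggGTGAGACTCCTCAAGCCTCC
Transcripts with the intron kept made 7.02% of the BAX counts of the 2 forms in the ERBB2-set line (4.90 to 9.87), 13.8% (9.28 to 19.4) in the RARRES2-set line and 17.5% (14.2 to 21.0) in the FOLR1-set line. In single counts that named a form they made 14 of 202 (6.93%), 13 of 114 (11.4%) and 31 of 192 (16.1%). The ERBB2-set line was the low one in both readings. Its interval did not reach that of the FOLR1-set line in the estimates but did in single counts (3.84 to 11.4 against 11.2 to 22.1), and the RARRES2-set line overlapped both others. In CPM the intron-kept form was at 9.20, 7.99 and 19.6, and the intron-removed form at 122, 50.03 and 92.2. The FOLR1-set line thus had the highest level of the intron-kept form, and the RARRES2-set line the lowest level of the intron-removed form.

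BAK1, which encodes the other effector BAK, lies on chromosome 6 (33572547 to 33580293, minus strand). It had 75 counts in the ERBB2-set line (21.8 CPM, 17.1 to 27.3), 44 in the RARRES2-set line (13.0, 9.46 to 17.5) and 41 in the FOLR1-set line (9.08, 6.52 to 12.3). The ERBB2-set line was 1.67-fold (1.14 to 2.49) above the RARRES2-set line and 2.40-fold (1.62 to 3.60) above the FOLR1-set line. The latter 2 lines did not differ beyond counting error (1.43-fold, 0.916 to 2.25). With median centring the ratio of the ERBB2-set to the RARRES2-set line was 1.45-fold, so that BAK1 was the member lost from that pair. Its pseudogenes BAK1P1 and BAK1P2 were listed with 0 counts, as was BCL2L12P1.

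BID, a BH3-only protein that caspase-8 cleaves to link death receptors with mitochondria, lies on chromosome 22 (17734138 to 17774665, minus strand). It was at 54.6 CPM (47.1 to 63.0) in the ERBB2-set line, 89.99 (80.2 to 101) in the RARRES2-set line and 39.2 (33.6 to 45.4) in the FOLR1-set line. The RARRES2-set line was the high one, 1.65-fold (1.37 to 1.99) above the ERBB2-set line and 2.30-fold (1.90 to 2.78) above the FOLR1-set line. The ERBB2-set line was 1.39-fold (1.13 to 1.72) above the FOLR1-set line, a log2 ratio of 0.48 that came to 0.12 without mitochondrial and ribosomal protein genes and to 0.03 with median centring.

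BID transcripts differ in 2 early exons that hold the usual start of translation. ENST00000622694 and ENST00000399774 carry both (195 codons), while ENST00000399765 skips chr22:17750105-17750174 and chr22:17743803-17744013 and encodes 99 codons. The bases before the shared next exon, in capitals, tell them apart.
BID both exons present: gaagaatagaggcagATTCTGAAAGTCAAG
BID both exons skipped: cgcggctggagggtgATTCTGAAAGTCAAG
ENST00000317361 (241 codons) was counted with the form that has both exons, and ENST00000615414 (99 codons) with the form that skips them. ENST00000399767 and ENST00000614949, which also encode 99 codons, were left out. They held 10.8 and 4.24 counts in the ERBB2-set, 19.4 and 9.50 in the RARRES2-set and 9.46 and 3.46 in the FOLR1-set line. Transcripts that skip both exons made 16.6% (11.5 to 23.2) of the counts of these forms in the ERBB2-set line, 24.8% (19.7 to 30.3) in the RARRES2-set line and 12.4% (7.61 to 18.2) in the FOLR1-set line. In single counts they made 19 of 107 (17.8%), 24 of 104 (23.1%) and 9 of 101 (8.91%). The RARRES2-set line was the high one in both readings, and its interval did not reach that of the FOLR1-set line in the estimates, while the ERBB2-set line overlapped both. In single counts these intervals overlapped (15.4 to 32.4 against 4.16 to 16.2), as they did in the estimates over barcodes with at least 5 marker counts (19.02 to 29.8 against 6.93 to 19.2).

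BAD, a BH3-only protein that survival kinases hold inactive by phosphorylation, lies on chromosome 11 (64269830 to 64284669, minus strand). It was at 91.5 CPM (81.7 to 102) in the ERBB2-set line, 196 (181 to 211) in the RARRES2-set line and 60.7 (53.7 to 68.3) in the FOLR1-set line. The RARRES2-set line stood 2.14-fold (1.87 to 2.45) above the ERBB2-set line and 3.22-fold (2.80 to 3.73) above the FOLR1-set line, the widest range among members with at least 100 counts. The ERBB2-set line was 1.51-fold (1.28 to 1.78) above the FOLR1-set line, a value that came to 1.17-fold without mitochondrial and ribosomal protein genes. BAD was detected in 31.6% of RARRES2-set barcodes thinned to 2000 counts, against 16.3% and 13.1%, and in 63.6%, 37.0% and 28.5% without thinning.

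BAD transcripts kept or removed an intron in the 5′ untranslated region (chr11:64284377-64284630, 254 bases) without a change in the encoded 168 codons. The next exon is in capitals, preceded by the first exon or by the end of the intron.
BAD intron removed: gagatcgggcttgggCCCAGAGCATGTTCC
BAD intron kept: atcttgtcctcacagCCCAGAGCATGTTCC
The intron-kept transcript ENST00000394532 made 24.6% of BAD counts in the ERBB2-set line (20.1 to 29.9), 34.1% (30.4 to 37.8) in the RARRES2-set line and 18.5% (14.2 to 23.7) in the FOLR1-set line. In single counts it made 38 of 159 (23.9%), 39 of 118 (33.1%) and 24 of 156 (15.4%). The order of the lines was the same as that of the BAD level, with the RARRES2-set line above both others in the estimates. In single counts its interval overlapped that of the ERBB2-set line (24.7 to 42.3 against 17.5 to 31.3), as it did in the estimates at a marker share of 90% (26.8 to 37.6 against 20.8 to 32.2).

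**Figure D4:**
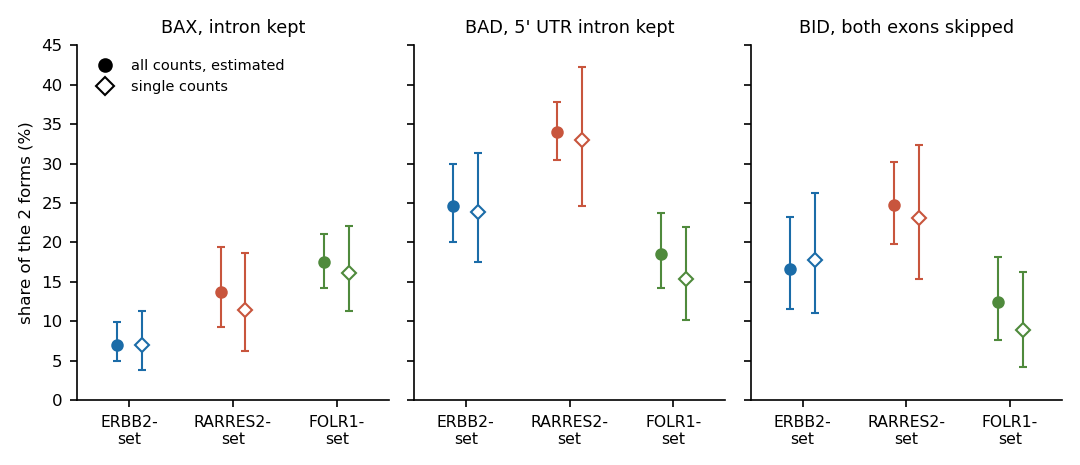
Share of the intron-kept form of BAX, the intron-kept form of BAD and the BID form that skips both exons in each line, as a percentage of the 2 forms compared; filled circles are all estimated counts, open diamonds are single counts, and bars are 95% Clopper-Pearson intervals. BAX is lowest in the ERBB2-set line at 7.02%, while BAD and BID are highest in the RARRES2-set line at 34.1% and 24.8%.

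In all 6 members could be compared by transcript share, with at least 50 counts in both lines and 1 gene in the entry, and a difference of at least 10 percentage points in 1 transcript counted. Of the 6, 0 passed between the ERBB2-set and RARRES2-set lines, against 12.8% of all entries compared, with BAD nearest at 9.45 points. The ERBB2-set and FOLR1-set lines had 1 (BAX, 10.6 points), against 12.1%. The RARRES2-set and FOLR1-set lines had 2 (BAD with 15.6 points and BID with 11.3), against 15.2%. BAD and BID passed in single counts as well, and BAX did not.

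BBC3, which encodes PUMA, a BH3-only protein, lies on chromosome 19 (47220824 to 47232766, minus strand). It had 23 counts in the ERBB2-set line (6.68 CPM, 4.24 to 10.0), 9 in the RARRES2-set line (2.66, 1.22 to 5.06) and 42 in the FOLR1-set line (9.30, 6.70 to 12.6). The FOLR1-set line was 3.49-fold (1.68 to 8.16) above the RARRES2-set line by these few counts, while it and the ERBB2-set line did not differ beyond counting error (1.39-fold, 0.818 to 2.43). Of the 9 counts in the RARRES2-set line, 4 came from 1 barcode. BBC3 was detected in 3.55%, 1.27% and 5.10% of barcodes. CDKN2A, which had 88 counts in the FOLR1-set line, was in 0.154% of ERBB2-set and 0% of RARRES2-set barcodes. CDH1, highest in the RARRES2-set line, was in 4.17% of ERBB2-set and 0.784% of FOLR1-set barcodes, and ESRP1 in 0% and 0.392%. GRB7, highest in the ERBB2-set line, was in 1.90% of RARRES2-set and 15.2% of FOLR1-set barcodes.

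Which line had the lowest share of member counts from anti-apoptotic members depended on the joined BCL2L2 entry. With this entry, which is mostly PABPN1, counted as BCL2L2, the anti-apoptotic members BCL2L1, MCL1, BCL2L2 and BCL2L12 held 60.5% (58.6 to 62.4) of the 2665 member counts of the ERBB2-set line, 56.7% (54.8 to 58.5) of 2802 in the RARRES2-set line and 60.7% (58.8 to 62.6) of 2645 in the FOLR1-set line. Without the joined BCL2L2 entry the shares were 50.3% (48.1 to 52.4), 48.9% (46.9 to 51.0) and 47.3% (45.1 to 49.6), so that the FOLR1-set line was the lowest, and the intervals of all 3 lines overlapped. Counts are not scaled to length and are not protein.

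Members were also compared inside each line, between the barcodes with the highest and the lowest share of counts from 10 G2M genes (such as TOP2A, CDK1 and CCNB1), with each line cut into 3 equal parts. Barcodes with no such count made 54.9%, 11.8% and 30.5% of the ERBB2-set, RARRES2-set and FOLR1-set lines, and ties were split in file order. BCL2L12 was higher in the high-G2M part of every line, 3.55-fold (2.17 to 6.09) in the ERBB2-set line, 1.51-fold (1.09 to 2.11) in the RARRES2-set line and 2.34-fold (1.64 to 3.41) in the FOLR1-set line. Its level in the high-G2M and low-G2M parts was 65.1 and 18.4 CPM in the ERBB2-set line. In the RARRES2-set line it was 95.3 and 63.3 CPM, and in the FOLR1-set line 76.4 and 32.6. The part of G2M content in the BCL2L12 differences between lines was not tested. At least 1.5-fold higher in the high-G2M part were 1 of 8 members in the ERBB2-set line, against 15.8% of all entries, 1 in the RARRES2-set line, against 18.4%, and 2 in the FOLR1-set line (BCL2L12 and BID, with BID at 1.68-fold, 1.11 to 2.58), against 19.1%. In the RARRES2-set line BCL2L1 (1.45-fold, 1.14 to 1.85) and the joined, mostly PABPN1 entry of BCL2L2 (1.33-fold, 1.03 to 1.71) were also higher in the high-G2M part, below the 1.5-fold limit. BBC3 was lower in the high-G2M part of the ERBB2-set line, with 3 against 19 counts, and of the FOLR1-set line, with 8 against 20. In the RARRES2-set line it had 1 count in each part, which shows no direction. The high-G2M part was also deeper, with a median of 5943 against 4802 counts per barcode in the ERBB2-set line, 7287 against 5233 in the RARRES2-set line and 5875 against 4403 in the FOLR1-set line. Between the deeper and the shallower barcodes of each line BCL2L12 differed by 2.48-fold (1.52 to 4.22) in the ERBB2-set line but by 0.996-fold (0.753 to 1.33) and 1.01-fold (0.762 to 1.34) in the RARRES2-set and FOLR1-set lines. The part of depth in the ERBB2-set value was not tested.

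**Figure D5:**
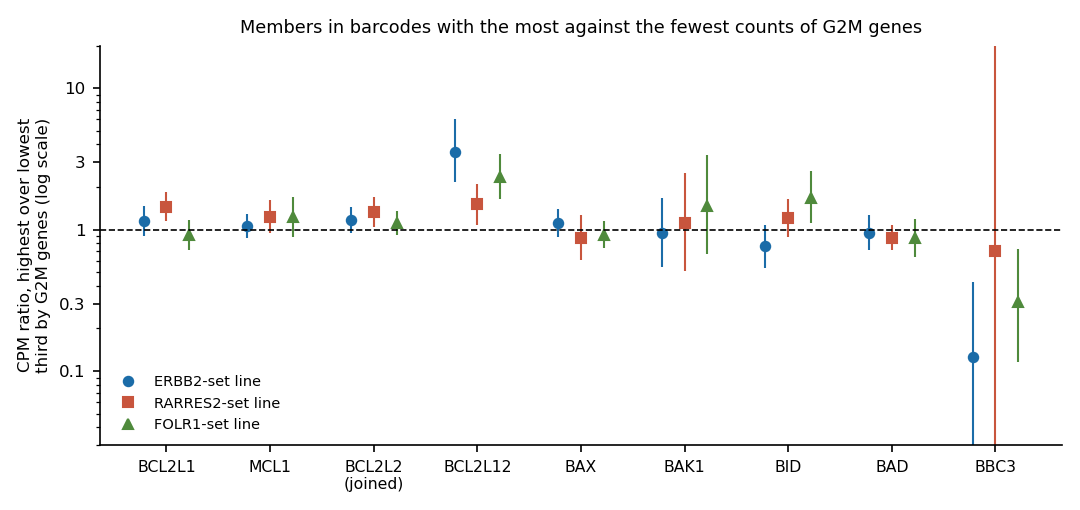
CPM ratio of each member between the barcodes with the highest and the lowest share of G2M gene counts (1 of 3 equal parts each), within each line, on a log scale; bars are 95% intervals, cut at the ends of the axis, and the dashed line is no difference. BCL2L12 lies above 1 in all 3 lines, from 1.51 to 3.55, and BBC3 below 1 in the ERBB2-set and FOLR1-set lines.

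BCL2L1 moved with depth as well: its CPM was 1.32-fold (1.04 to 1.70) higher in the deeper barcodes of the ERBB2-set line and 1.57-fold (1.27 to 1.97) in those of the RARRES2-set line, with 1.15-fold (0.929 to 1.43) in the FOLR1-set line. BAX was 1.22-fold (1.001 to 1.498) higher in the deeper barcodes of the FOLR1-set line. The FOLR1-set line held 257 barcodes whose counts of CXCL14 and DEFB1 were mostly CXCL14 and 189 that were mostly DEFB1. All 9 members had ratios between these states whose intervals included 1, from 0.779 (BCL2L1) to 1.4999 (BBC3).

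Other genes of the family and its pathway were taken from lists, and the 3 with the widest range over the lines are named for each. Counts of genes past 1.5-fold in these lists stand beside the shares of all entries given above, which were 34.1% higher and 20.8% lower in the ERBB2-set than in the RARRES2-set line, 43.1% and 14.7% in the ERBB2-set than in the FOLR1-set line, and 34.2% and 20.3% in the RARRES2-set than in the FOLR1-set line. Of 16 other genes on a BCL2 family list, which also holds the related genes FUNDC1 and BECN1, 9 had at least 100 counts. Of these, 5 were higher in the ERBB2-set line than in the FOLR1-set line and 2 lower, with a median log2 ratio of 0.76 beside 0.45 for all entries. FUNDC1 (47.6 against 28.1 CPM) and BECN1 (61.9 against 15.7) were among the 5, so these values are not those of the family alone. Against the RARRES2-set line 4 of the 9 were higher in the ERBB2-set line and 1 lower. Between the RARRES2-set and FOLR1-set lines 2 were higher in each. PMAIP1, which encodes NOXA, a BH3-only protein that binds MCL1, was at 580 CPM (555 to 606) in the ERBB2-set line, 112 (101 to 124) in the RARRES2-set line and 30.6 (25.7 to 36.1) in the FOLR1-set line, the same order as MCL1. BECN1, an autophagy protein with a BH3 motif, was at 61.9, 20.4 and 15.7 CPM, and BOK, a BAX-like effector, at 18.9, 9.47 and 5.09. BCL2 itself had 6, 12 and 2 counts.

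Of 16 genes of the apoptosome, caspases and outer membrane, 15 had at least 100 counts. Of these, 4 were higher in the ERBB2-set line than in the RARRES2-set line and 3 lower, 4 were higher in the ERBB2-set than in the FOLR1-set line and 3 lower, and 2 were higher in the RARRES2-set than in the FOLR1-set line and 1 lower. The medians were 0.25, 0.24 and -0.03 on the log2 scale for these pairs, beside 0.21, 0.45 and 0.20 for all entries. The 4 of 15 higher in the ERBB2-set than in the FOLR1-set line was below the 43.1% of all entries. That share was 28.3% without mitochondrial and ribosomal protein genes and 24.8% with median centring, and the list was not recounted under these scalings. CASP8, the caspase that cleaves BID, was at 18.3 CPM (14.1 to 23.4), 8.29 (5.51 to 11.98) and 2.44 (1.22 to 4.36) in the ERBB2-set, RARRES2-set and FOLR1-set lines. APAF1, the scaffold of the apoptosome, was low in the ERBB2-set line at 5.52 CPM beside 21.6 and 21.3, and CASP2 likewise at 7.84 beside 23.4 and 25.03.

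All 6 caspase inhibitors on the list had at least 100 counts. BIRC3 (cIAP2) was at 3.49 CPM in the ERBB2-set line beside 30.5 and 23.3 in the RARRES2-set and FOLR1-set lines, and its neighbour BIRC2 (cIAP1) was at 76.1 beside 21.6 and 29.7. BIRC5 (survivin), a G2M-phase gene, was at 99.1, 287 and 72.4 CPM. By pair, 1 was higher and 2 lower in the ERBB2-set than in the RARRES2-set line, 2 and 1 in the ERBB2-set than in the FOLR1-set line, and 2 and 0 in the RARRES2-set than in the FOLR1-set line. Beside all entries (34.1% and 20.8%, 43.1% and 14.7%, 34.2% and 20.3%), nothing can be read from so few genes.

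Of 7 genes for MCL1 turnover, 6 had at least 100 counts, and none was higher in the FOLR1-set line than in the ERBB2-set line while 3 were lower. Against the RARRES2-set line 1 was higher in the ERBB2-set line and 2 lower, and between the RARRES2-set and FOLR1-set lines 2 were higher and 1 lower. The 3 and 0 of 6 lay near the 43.1% and 14.7% of all entries. USP13, a deubiquitinase of MCL1, was at 13.1, 27.2 and 6.20 CPM in the ERBB2-set, RARRES2-set and FOLR1-set lines. FBXW7, a ubiquitin ligase subunit that targets MCL1, was at 15.7, 4.14 and 14.2, and CDC20, an activator of the mitotic ligase that does so, at 80.2, 140 and 69.3.

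Of 17 splicing regulators reported for BCL2L1 or MCL1 (listed under 18 names, SAP155 being a second name of SF3B1), all had an entry and 16 had at least 100 counts. Of these, 5 were higher in the ERBB2-set than in the RARRES2-set line and 1 lower, 6 and 1 in the ERBB2-set than in the FOLR1-set line, and 3 and 2 in the RARRES2-set than in the FOLR1-set line. The 5 and 6 of 16 lay near the 34.1% and 43.1% of all entries. The 3 of 16 was below 34.2%, and the lower counts of 1, 1 and 2 were below 20.8%, 14.7% and 20.3%. HNRNPA1 was at 501, 330 and 884 CPM in the ERBB2-set, RARRES2-set and FOLR1-set lines, RBM25 at 262, 118 and 127, and RBM10 at 34.0, 48.0 and 23.7.

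The entries with the pattern over the 3 lines nearest to BAD, which with MCL1 had the widest range among members with at least 100 counts, among 3274 entries with at least 500 counts, were EGFR (68.6, 147 and 43.4 CPM), EHD1 (39.2, 85.8 and 27.7) and ZMYND8 (53.7, 115 and 33.7). EHD1 lies 567 kb from BAD on chromosome 11. The nearest to MCL1 were ZNF770 (75.5, 51.5 and 27.2 CPM), MAFG (72.9, 50.6 and 26.6) and BMPR2 (74.7, 50.3 and 27.2), none of them on chromosome 1. The measure was the Euclidean distance of centred log2 CPM over 3 lines, so many entries lie close by.

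The members were set beside their chromosome neighbours within 1 Mb that had at least 100 counts. For BAX, 36 neighbours had a median log2 ratio of 0.38 for the ERBB2-set over the RARRES2-set line and -0.53 for the RARRES2-set over the FOLR1-set line, beside 1.18 and -0.95 for BAX. For BAD, 38 neighbours had -0.22 and 0.45, beside -1.10 and 1.69 for BAD. For MCL1, 30 neighbours had 0.27 for the ERBB2-set over the FOLR1-set line beside 1.51. For BID, 7 neighbours had 0.79 and -0.13, beside -0.72 and 1.20, so the sign of BID was opposite to that of its neighbours in both of these pairs. BCL2L1 and BAK1 lay closer to their neighbours in some pairs. For BCL2L1, 12 neighbours had 0.78 for the RARRES2-set over the FOLR1-set line beside 0.71, but 0.13 for the ERBB2-set over the RARRES2-set line beside -0.59. For BAK1, 26 neighbours had 0.94 for the ERBB2-set over the FOLR1-set line beside 1.26. BCL2L12 and BBC3 lay apart from their neighbours. For BCL2L12, 35 neighbours had 0.11 for the ERBB2-set over the RARRES2-set line beside -1.04. They had 0.09 beside -0.54 for the ERBB2-set over the FOLR1-set line, and 0.21 beside 0.50 for the RARRES2-set over the FOLR1-set line. The sign of BCL2L12 was thus also opposite in the pairs with the ERBB2-set line. For BBC3, 16 neighbours had 0.46, 0.33 and -0.50 in these 3 pairs, beside 1.33, -0.48 and -1.80.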

How the data were processed

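The values deposited by the authors are estimated counts, 1 per transcript in each barcode of the PromethION library, not normalised. The design text names Isosceles. Cell Ranger 6.0.1 and GRCh38 are named, with no role, per the submitters' processing notes. Whether molecular identifiers were collapsed, and which aligner was run, is not stated in the sources at hand, so intervals cover counting error only. Estimates were summed per gene entry, where all sums were whole within 1e-06, and rounded for intervals. Exon positions and sequences came from GENCODE release 29 (GRCh38), and positions of genes from the authors' table. No genome sequence or protein table was used. Calculations ran in Python 3.11.15 with numpy 2.4.6, scipy 1.17.1 and scanpy 1.11.5, and the call rules were tested on simulated data. The text names all members and, per list, the 3 genes with the highest ratio of the highest to the lowest line. The members, lines and lists were chosen with earlier results of these data known. The single-count readings, median centring, the BCL2L2 transcript alone and the chromosome neighbours were added after seeing the data. A list of pathway genes is not reported here.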

Additional observations from a re-analysis of the deposited data

How the results depend on the processing

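Settings tried were other barcode minimums (500 and 2000 counts), marker shares of 60% and 90%, at least 5 marker counts, leaving out the 77 barcodes that Scrublet called, other scalings and other limits. A limit of 2-fold left 3 members between the ERBB2-set and RARRES2-set lines and 2 between the RARRES2-set and FOLR1-set lines. A limit of 20 points left 0 members with a transcript share difference in any pair. Between the ERBB2-set and RARRES2-set lines, 1 member (BAD) passed 10 points with 2000 counts, 5 marker counts, no doublets or only whole estimates. Between the ERBB2-set and FOLR1-set lines, 0 passed with 5 marker counts or in single counts. The BCL2L1 short share was 26.1% from whole estimates in the ERBB2-set line, where 18 of 23 whole counts were equal parts over the 3 transcripts and so do not bear on the forms. It was 0%, 14.3% and 0% in single counts of the ERBB2-set, RARRES2-set and FOLR1-set lines. The MCL1 short share of the RARRES2-set line was 2.52% from whole estimates and 2.38% in single counts, and that of the FOLR1-set line 0% in single counts. The anti-apoptotic share was 50.3%, 48.9% and 47.3% without the joined entry, and 50.9%, 49.5% and 47.9% with the BCL2L2 transcript alone. Of 243 recomputed log2 ratios of members, 27 left the interval of the reported value. Direction was scored only where the reported value was past 1.5-fold, and none of those turned. Some smaller ratios did, such as those of the ERBB2-set over the FOLR1-set line without mitochondrial and ribosomal protein genes. These were BCL2L1 (0.12 to -0.24), the joined BCL2L2 entry (0.10 to -0.26) and BAX (0.23 to -0.13). Whole estimates put the BID form that skips both exons at 45.5%, 50.9% and 36.0%, because counts shared by 2 transcripts of the other form are then dropped. Depth limits the transcript of BCL2L2 alone (25.5, 24 and 20 counts), BBC3 (74 counts) and BAK1 (160 counts) most.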
